A study of Mus musculus with 16 samples.

Results

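The genes described here are 8 markers of the striatum measured in dissected mouse hippocampus: Drd1, Drd2, Adora2a, Ppp1r1b, Rgs9, Pde10a, Penk and Tac1. They were chosen by name, with earlier results of these data known, as a check for neighboring tissue in the dissection, so the order and pattern of their levels across mice are given as a description. All 8 genes were present among 18287 gene names, with 23 of 80137 transcripts, and the transcripts of each gene were summed in each mouse. Another 4 assembled transcripts without a gene name lay at the loci of Penk and Pde10a and are given apart.

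RNA-seq was performed on the hippocampus of 16 wild type C57BL/6 mice, 3 months of age, with 1 library per mouse and 4 mice per group. Homecage (HC) mice received neither shocks nor escape trials, and control (Ctrl) mice received 30 escape trials with shocks of 0.4 mA and no inescapable shocks. A further 180 shocks of 0.4 mA that could not be escaped preceded the trials in the remaining mice, which were divided by escape behavior into a learned helpless (LH) and a non-learned helpless (NLH) group. LH vs. Ctrl, LH vs. NLH, NLH vs. Ctrl and Ctrl vs. HC were compared. The first 3 share mice with each other, and the last shares the Ctrl mice with LH vs. Ctrl and NLH vs. Ctrl.

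In the striatum, medium spiny neurons fall into a direct pathway type, which carries the dopamine receptor D1 and the peptide substance P, and an indirect pathway type, which carries the dopamine receptor D2, an adenosine receptor (Adora2a) and enkephalin. The D1 and this adenosine receptor raise cyclic AMP, D2 receptors lower it, and DARPP-32, RGS9 and PDE10A act further down this pathway. Several of these genes are also expressed by hippocampal granule cells, pyramidal cells or interneurons, so their presence in bulk RNA does not by itself name a tissue.

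Levels are FPKM, the fragments of a transcript divided by its length and by the total of the library, so that genes can be compared per length. Depth was estimated from FPKM steps at 20200000 to 38020000 fragments per mouse, and summed FPKM lay between 120208 and 158004. Of the libraries, LH 3 and LH 4 stood apart, with 10846 and 15504 transcripts at 0 against 4872 to 7352 in the other 14. LH 2 had the highest summed FPKM and LH 4 the lowest. The dissection was checked against markers of hippocampal subfields: 14 of 14 were measured and 13 had a mean of at least 1 FPKM, led by Zbtb20 with 41.5 FPKM and Neurod6 with 27.1 FPKM. In bulk RNA, fewer cells of a type and less RNA per cell cannot be told apart.

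Promoter sequence from RefSeq on GRCm38.p6 is shown for Drd1, the gene without overlap in LH vs. Ctrl and in NLH vs. Ctrl. It is also shown for Drd2, the other dopamine receptor, and for Rgs9, whose window held the letters of a TATA box. Windows of 5 of the 8 members were in the RefSeq table, 7 windows in all, from 250 bases before to 50 bases after the start. The bases upstream of both the RefSeq start and the GENCODE gene are printed, 5′ to 3′, with GC boxes and the TATA box in capitals.
Drd1, chr13:54055706-54055908, minus strand: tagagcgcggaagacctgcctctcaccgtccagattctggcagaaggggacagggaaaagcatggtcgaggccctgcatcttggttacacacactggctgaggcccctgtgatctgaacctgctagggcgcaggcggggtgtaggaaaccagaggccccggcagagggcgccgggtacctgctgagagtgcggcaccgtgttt
Drd2, chr9:49340153-49340402, plus strand: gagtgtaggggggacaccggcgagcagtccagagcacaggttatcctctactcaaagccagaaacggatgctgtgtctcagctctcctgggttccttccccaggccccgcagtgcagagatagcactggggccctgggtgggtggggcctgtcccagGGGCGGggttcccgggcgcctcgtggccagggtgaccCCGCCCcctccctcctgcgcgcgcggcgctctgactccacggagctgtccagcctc
Rgs9, chr11:109298182-109298431, minus strand: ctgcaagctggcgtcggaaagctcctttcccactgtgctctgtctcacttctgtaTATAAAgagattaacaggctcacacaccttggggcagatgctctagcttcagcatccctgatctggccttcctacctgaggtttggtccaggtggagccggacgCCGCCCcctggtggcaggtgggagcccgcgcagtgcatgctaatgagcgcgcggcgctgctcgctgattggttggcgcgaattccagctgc
The GC box, GGGCGG, was found on either strand in 7 of the 7 windows of Drd1, Drd2, Tac1, Rgs9 and Pde10a, against 35.7% of all 32851 windows of that length. In Drd1 the match lay after the start, outside the 203 bases shown. The letters of the TATA box, TATAAA, were found in the window of 1 member, Rgs9, against 13.6% of all windows. There the match lay near the 5′ end of the 250 bases shown, far from the start. TGACG, part of the cyclic AMP response element, was found in the window of Tac1, against 20.8%. The whole element TGACGTCA was in 0 of the 7 windows, against 1.79% of all. These are matches of letters, with no measurement of binding.

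The 8 levels spanned a wide range, and the 6 highest genes kept their order in at least 15 of 16 mice for each pair of neighbors. Mean FPKM over the 16 mice was 7.79 for Ppp1r1b, 5.32 for Pde10a, 2.90 for Tac1, 1.72 for Rgs9, 0.998 for Drd1, 0.293 for Drd2, 0.116 for Penk and 0.104 for Adora2a. Ppp1r1b was above Pde10a in 15 of 16 mice, Pde10a above Tac1 in 16, Tac1 above Rgs9 in 16, Rgs9 above Drd1 in 15 and Drd1 above Drd2 in 16. Penk and Adora2a did not differ beyond their spread, with Penk the higher in 4 of 16 mice. Of all gene names, 18.0% had a higher mean FPKM than Ppp1r1b, 57.1% than Drd1, 72.5% than Drd2 and 83.7% than Adora2a. With the assembled transcripts added the order changes at 2 places: Pde10a, at a mean of 8.57 FPKM, lies above Ppp1r1b, and Penk, at 4.37, above Tac1.

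**Figure D1:**
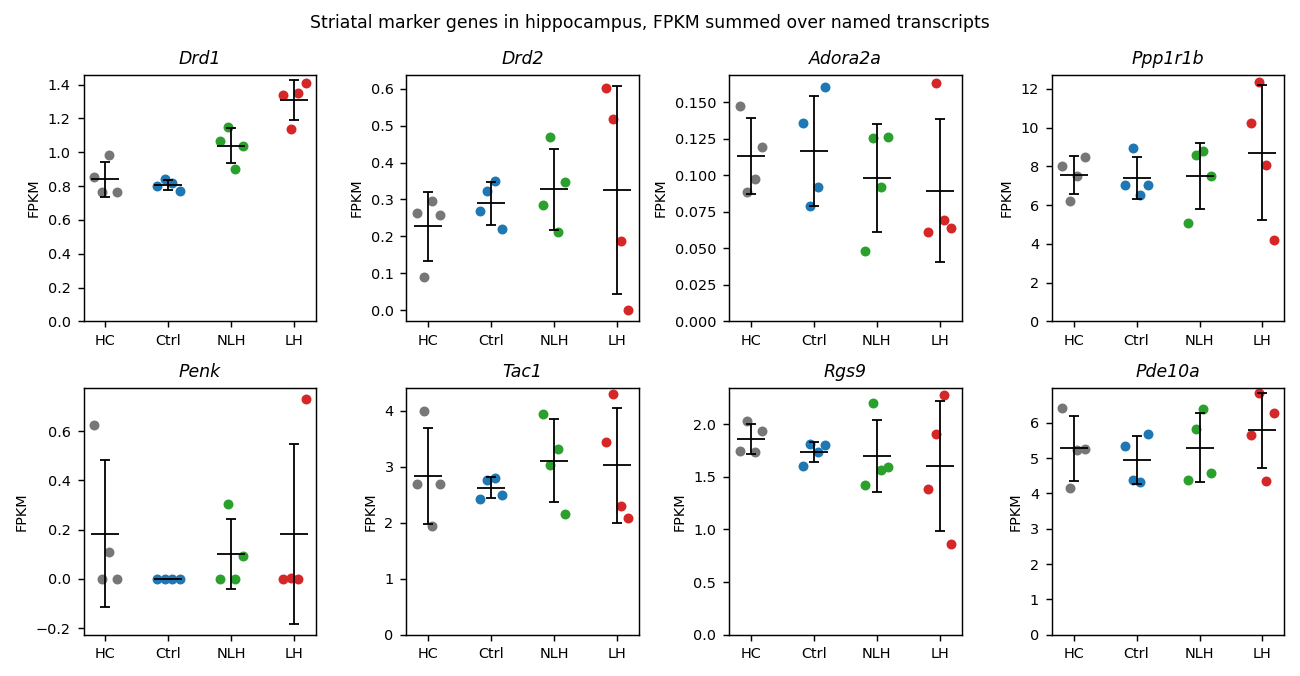
FPKM of each gene in each mouse by group, with 4 mice per group; points are mice and bars are the group mean ± SD. Drd1 in LH mice lies between 1.14 and 1.41 FPKM, above all Ctrl and HC mice, while the LH mice of the other 7 genes overlap every other group.

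Drd1, the D1 receptor of direct pathway neurons, lies at chr13:54051183-54055705 on the minus strand of GRCm38 and was measured by 1 transcript of 3526 bases in 2 exons. In the order of mice 1 to 4, used for all genes, its FPKM in HC was 0.855, 0.764, 0.982 and 0.765, and in Ctrl 0.803, 0.839, 0.817 and 0.770. In NLH mice it was 1.06, 1.15, 0.900 and 1.04, and in LH mice 1.34, 1.14, 1.35 and 1.41. Every LH mouse was above every Ctrl and HC mouse, every NLH mouse was above every Ctrl mouse, and LH overlapped NLH only through LH 2, which lay just under NLH 2. The HC mean was 0.841 ± 0.103, the Ctrl mean 0.807 ± 0.0289, the NLH mean 1.04 ± 0.104 and the LH mean 1.31 ± 0.117 FPKM (SD, n = 4), so that LH was 1.62-fold Ctrl.

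The Drd1 difference in LH vs. Ctrl was 0.63 ± 0.15 (SE) on the scale of log2(FPKM + 0.1), with an adjusted p of 0.139 by limma over all gene names. It did not pass the threshold of 0.05. The unadjusted limma p was 0.000794. Without LH 4 the difference was 0.60 with an adjusted p of 0.0638, and without LH 3 and LH 4 it was 0.56 with an adjusted p of 0.0587. In LH vs. NLH the difference was 0.31 ± 0.15 (adjusted p = 0.680), in NLH vs. Ctrl 0.32 ± 0.15 (adjusted p = 0.890) and in Ctrl vs. HC −0.05 ± 0.15 (adjusted p = 1.00) by limma.

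Complete separation of the groups was not rare among genes. Drd1 was 1 of the 8 markers without overlap in LH vs. Ctrl, where LH was higher without overlap in 4.05% of all gene names and separated in either direction in 5.59%. Drd1 was also 1 of the 8 in NLH vs. Ctrl, against 4.76% with NLH higher and 6.04% in either direction. In LH vs. NLH and in Ctrl vs. HC, 0 of the 8 separated, against 2.11% and 5.24% of all gene names. With 8 genes, 1 is the smallest count above 0 that could be seen. Divided by median-ratio size factors, Drd1 was 0.960 to 1.73 in LH and 0.773 to 0.859 in Ctrl, still without overlap, but HC, at 0.760 to 1.06, overlapped LH, and NLH, at 0.802 to 1.09, overlapped Ctrl.

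The reads behind Drd1 were few. Its FPKM corresponded to an estimated 76 to 130 fragments per mouse, with a median of 95, on an assumed fragment length of 200 bases. A count of that size carries an error of 8.79% to 11.4% (SD) from counting alone. The spread between mice was 12.2% of the mean among HC, 3.58% among Ctrl, 10.0% among NLH and 8.91% among LH mice, so the Ctrl mice lay closer together than counting error of this size would place them. Depth also differed between the groups: the LH libraries held an estimated 20200000 to 28140000 fragments and the Ctrl libraries 28610000 to 38020000, without overlap. Before scaling by depth the estimated Drd1 fragments overlapped, with 90 to 125 in LH and 76 to 106 in Ctrl. The part of depth in the Drd1 difference was not tested.

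Drd2, the D2 receptor of indirect pathway neurons, lies at chr9:49340627-49408177 on the plus strand and was measured by 1 transcript. Its FPKM was 0.262, 0.0901, 0.297 and 0.259 in HC and 0.268, 0.322, 0.349 and 0.219 in Ctrl. In NLH it was 0.285, 0.470, 0.211 and 0.346. In LH it was 0.601, 0.517, 0.187 and 0. LH 1 and LH 2 were the highest of all 16 mice and LH 4 was listed at 0, so the LH group enclosed every other group. The limma difference in LH vs. Ctrl was −0.21 ± 0.48 (adjusted p = 0.907), and without LH 3 and LH 4 it was 0.77 (adjusted p = 0.158).

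Adora2a, the adenosine receptor found with D2 in indirect pathway neurons, lies at chr10:75316877-75334784 on the plus strand and was the lowest of the 8 genes. Its FPKM was 0.147, 0.0886, 0.0971 and 0.119 in HC and 0.135, 0.0791, 0.0916 and 0.160 in Ctrl. In NLH it was 0.0480, 0.125, 0.0918 and 0.126, and in LH 0.0613, 0.163, 0.0696 and 0.0641. All groups overlapped, and 3 of the 4 LH mice lay below every Ctrl mouse while LH 2 was the highest of the 16. The limma difference was −0.21 ± 0.24 in LH vs. Ctrl (adjusted p = 0.780), and the 0.1 added before the logarithm, about as large as the levels themselves, makes fold changes of this gene appear smaller.

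Ppp1r1b encodes DARPP-32, a phosphatase inhibitor that integrates dopamine and glutamate signals, and lies at chr11:98348404-98357796 on the plus strand. FPKM over its 5 transcripts was 8.03, 6.21, 7.53 and 8.49 in HC and 7.03, 8.97, 6.50 and 7.02 in Ctrl. In NLH it was 5.08, 8.58, 8.81 and 7.52. In LH it was 10.3, 12.3, 8.07 and 4.19. LH 1 and LH 2 were the highest of the 16 mice and LH 4 the lowest. The mean was 8.71 ± 3.48 in LH and 7.38 ± 1.08 FPKM in Ctrl (SD, n = 4). The limma difference of 0.14 ± 0.26 in LH vs. Ctrl did not pass (adjusted p = 0.877), and it was 0.45 without LH 4 and −0.06 without LH 2.

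Rgs9, a regulator of G protein signalling whose long form is enriched in striatum, lies at chr11:109225355-109298129 on the minus strand. Its FPKM was 1.75, 2.03, 1.74 and 1.93 in HC and 1.60, 1.81, 1.73 and 1.80 in Ctrl. Among NLH mice it was 1.43, 2.20, 1.56 and 1.59, and in LH 1.38, 1.90, 2.27 and 0.859. LH held both the highest mouse, LH 3, and the lowest, LH 4. The limma difference in LH vs. Ctrl was −0.19 ± 0.23 (adjusted p = 0.793), and without LH 4 it was 0.06.

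Pde10a, a phosphodiesterase that degrades cyclic AMP and cyclic GMP in medium spiny neurons, lies at chr17:8525372-8986648 on the plus strand. FPKM over its 6 named transcripts was 6.42, 4.17, 5.24 and 5.27 in HC and 5.36, 4.39, 4.33 and 5.68 in Ctrl. Among NLH mice it was 4.37, 5.82, 6.40 and 4.59, and in LH 5.66, 6.84, 4.36 and 6.29. All groups overlapped. With the 3 unnamed transcripts of the locus the sum over the 16 mice averaged 8.57 FPKM, and HC mice averaged 7.86 ± 0.675, Ctrl mice 8.69 ± 0.204, NLH mice 8.91 ± 1.21 and LH mice 8.83 ± 1.05 (SD, n = 4). The limma difference in LH vs. Ctrl was 0.22 ± 0.17 for the named sum (adjusted p = 0.668) and 0.02 for the locus sum (adjusted p = 0.982).

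Penk encodes proenkephalin, the precursor of the enkephalins, and lies at chr4:4133531-4138819 on the minus strand. Its 2 named transcripts held little of the signal. Their sum was 0.622 FPKM in HC 1, 0.302 in NLH 2 and 0.730 in LH 4, and at or below 0.110 in the other 13 mice, the Ctrl mice included. An assembled transcript without a gene name held 97.3% of the FPKM at the locus. With it, the FPKM was 5.28, 4.43, 3.49 and 3.66 in HC and 3.42, 3.83, 4.13 and 3.54 in Ctrl. Among NLH mice it was 3.81, 5.13, 4.58 and 3.97, and in LH 5.65, 5.94, 6.29 and 2.81. In FPKM as deposited LH 1, LH 2 and LH 3 were the highest of the 16 mice and LH 4 the lowest. Divided by median-ratio size factors, LH 3 was still the highest and LH 4 the lowest, but HC 1 lay above LH 1 and LH 2. The mean over all mice of 4.37 FPKM moved Penk from rank 7 to rank 3 among the 8 genes. The limma difference of the locus sum in LH vs. Ctrl was 0.40 ± 0.21 (adjusted p = 0.430), while that of the named sum, 0.77 ± 0.71 (adjusted p = 0.715), rested on LH 4 and was 0.01 without it.

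**Figure D2:**
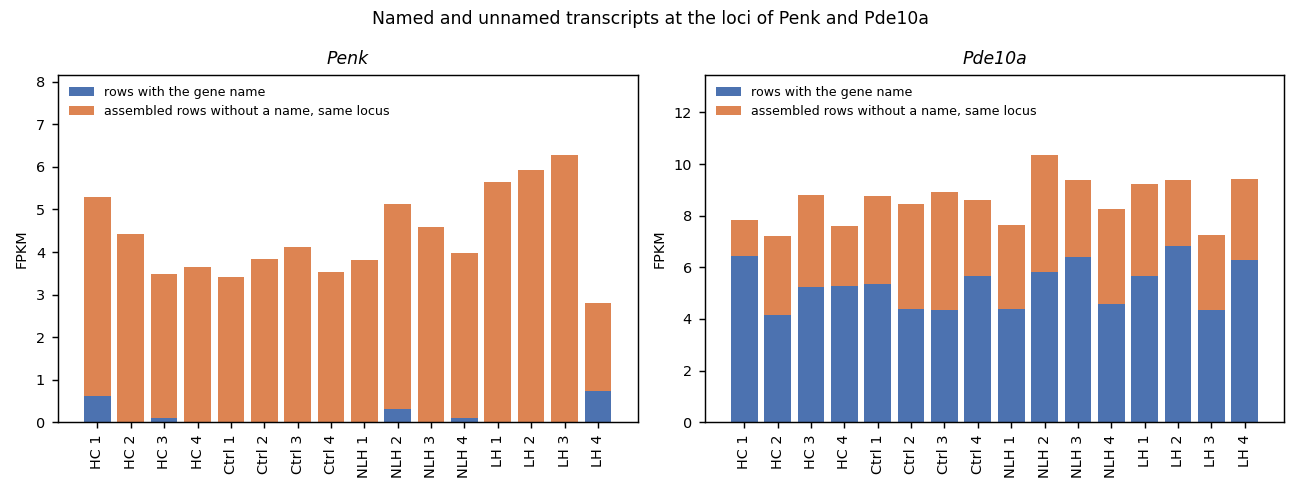
FPKM at the loci of Penk and Pde10a in each of the 16 mice, split into transcripts that carry the gene name and assembled transcripts that do not. At Penk the unnamed transcript held 97.3% of the FPKM over all mice, and LH 4 had the lowest sum, 2.81 FPKM.

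Tac1 encodes the precursor of substance P and neurokinin A, peptides of direct pathway neurons, and lies at chr6:7554879-7565834 on the plus strand. Its FPKM was 2.69, 4.00, 1.94 and 2.69 in HC and 2.43, 2.77, 2.81 and 2.50 in Ctrl. NLH mice had 3.94, 3.02, 3.31 and 2.16, and LH mice 3.44, 4.29, 2.30 and 2.08. All groups overlapped and the Ctrl mice were the closest together. The limma difference was 0.14 ± 0.24 in LH vs. Ctrl (adjusted p = 0.869) and 0.21 ± 0.24 in NLH vs. Ctrl (adjusted p = 1.00).

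At an adjusted p under 0.05 by limma, 0 of the 8 genes passed in any of the 4 comparisons. The background was 0% of gene names in LH vs. Ctrl, 0.0109% in LH vs. NLH, 0.00547% in NLH vs. Ctrl and 0% in Ctrl vs. HC. At an unadjusted p under 0.05, 1 of the 8, Drd1, passed in LH vs. Ctrl, where 2107 gene names or 11.5% did, and 0 of the 8 passed in LH vs. NLH, NLH vs. Ctrl and Ctrl vs. HC, where 7.54%, 5.59% and 2.70% did. The test of the study's methods, applied there to single transcripts and here to FPKM summed by gene name without adjustment or the study's later exclusions, called 1 of the 8, again Drd1, in LH vs. Ctrl, LH vs. NLH and NLH vs. Ctrl, against 8.03%, 3.50% and 9.58% of gene names. In LH vs. Ctrl that test called 1443 gene names in all, while limma called 0 after adjustment, or 191 when LH 4 was left out. In Ctrl vs. HC this test called 0 of the 8, against 8.50%. The median difference over the 8 genes in LH vs. Ctrl was 0.14 on the log2 scale, 5 of the 8 being positive, beside a median of 0.00 and 48.4% positive over all gene names.

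**Figure D3:**
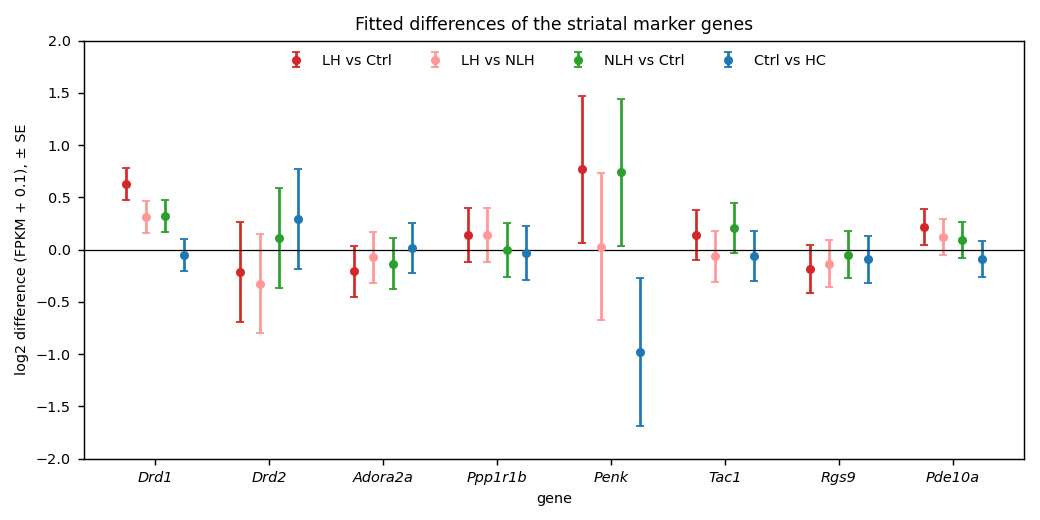
Fitted difference of each gene in 4 comparisons on the scale of log2(FPKM + 0.1), as points with bars of ± 1 SE from limma. Drd1 in LH vs. Ctrl, 0.63 ± 0.15, lies farthest from 0 in units of its error, and Penk and Drd2 have the widest bars.

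Sums over the genes depended on the scaling between mice. Summed over the named transcripts of the 8 genes, HC mice had 17.3 to 20.8 FPKM, Ctrl mice 16.6 to 19.2, NLH mice 16.2 to 21.7 and LH mice 15.6 to 27.2. LH 2 had the highest sum, and was the highest of 16 mice for Ppp1r1b, Tac1, Pde10a and Adora2a. LH 4 had the lowest sum, and was the lowest of 16 for Ppp1r1b, Rgs9 and Drd2 but the highest for Drd1 and for the named transcripts of Penk. Divided by median-ratio size factors, 1.19 for LH 2 and 0.812 for LH 4, the sums ran from 18.2 to 21.1 among HC, 16.7 to 18.9 among Ctrl, 16.6 to 19.8 among NLH and 19.2 to 22.9 among LH mice. On that scale LH 2 was still the highest and LH 4 was not the lowest. Every LH mouse was above every Ctrl mouse while overlapping HC and NLH. These sums leave out the unnamed transcripts at Pde10a and at Penk, where they held 97.3% of the FPKM. With them added, the scaled sums of LH and Ctrl overlapped, LH 4 lying below Ctrl 1 and Ctrl 2. These ranges have no test.

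Over 28 pairs of genes and 16 mice, Pearson's r on the log2 scale lay between −0.44 and 0.75 with a median of 0.15, and 11 pairs were below 0. The highest were Drd2 with Ppp1r1b at 0.75 and Ppp1r1b with Rgs9 at 0.56, values that share the low library LH 4. On ranks, Spearman's rho was 0.50 for the first pair and 0.29 for the second. The range and median of r above use the named transcripts of Penk. With locus sums 5 rather than 2 pairs were above 0.5, and Penk with Ppp1r1b moved from −0.33 to 0.68 and Penk with Rgs9 from −0.39 to 0.55. Drd1 with Drd2 gave −0.02 and Drd1 with Ppp1r1b −0.00. These values describe 16 libraries that share groups and scaling, and have no test.

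Among 10436 gene names with a mean of at least 1 FPKM, those whose pattern over the 16 mice was most like that of Drd1 were Zbtb43 with an r of 0.90, Elavl4 with 0.89 and Tpd52 with 0.88. With the group means removed, these values were 0.55, 0.35 and 0.20. Nearest to Ppp1r1b were Rab11fip4 with 0.94, Slc13a4 with 0.93 and Yif1a with 0.92, and nearest to Drd2 were Arih1 with 0.93, Zfp866 with 0.92 and Rab7 with 0.92. For Rgs9 they were Msto1, Gnl1 and Tmem219, each between 0.89 and 0.90, and for Tac1 Zfp706, Vps26a and Smim13, each between 0.86 and 0.88. Those of Pde10a were Ube2d1, 1810058I24Rik and Arfip2, from 0.78 to 0.84, those of Adora2a were Sidt2, Lipt2 and Nfatc2, from 0.79 to 0.82, and those of the named Penk transcripts, under 3% of the locus and high in few mice, were Dcaf17, Pus10 and Inpp5d, from 0.77 to 0.81. Drd1, Drd2, Penk and Adora2a had means under 1 FPKM and so were not among the names searched.

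Single transcripts were compared as well. Of 27 transcripts at the 8 loci, 2 had an unadjusted limma p under 0.05 in LH vs. Ctrl, 1 in LH vs. NLH, 1 in NLH vs. Ctrl and 0 in Ctrl vs. HC, against 10.7%, 8.72%, 5.12% and 3.45% of all 80137 transcripts, and the smallest adjusted p was 0.145. The second in LH vs. Ctrl, besides Drd1, was the Pde10a transcript ENSMUST00000115722.7, with 5 exons and 23.8% of the named Pde10a FPKM. Its FPKM was 1.12, 1.15, 1.09 and 0.584 in LH, 1.34, 1.18, 1.34 and 1.45 in Ctrl and 1.41, 1.32, 1.66 and 1.40 in NLH. Every LH mouse was below every Ctrl and NLH mouse, as in 0.756% of all transcripts, while 3.52% were below every Ctrl mouse and 2.25% below every NLH mouse. HC mice, at 1.15 to 1.59 FPKM, overlapped LH. The transcript was picked out of the 27 by its values. The limma difference was −0.43 ± 0.19 against Ctrl (adjusted p = 0.447) and −0.55 ± 0.19 against NLH (adjusted p = 0.454), so neither passed.

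Single transcripts varied widely in some of the genes. The main Pde10a transcript, ENSMUST00000089085.8 with 41.2% of the named FPKM, ranged from 0.00733 to 4.39 FPKM among mice, and ENSMUST00000141877.1 with 14.1% reached 4.26 FPKM in LH 4. ENSMUST00000149440.7, with 20 exons and 19.1%, averaged 0.520 ± 0.305 FPKM among HC mice, 0.900 ± 0.444 among Ctrl, 1.22 ± 0.588 among NLH and 1.42 ± 0.264 among LH mice (SD, n = 4), and its limma differences of 0.70 in LH vs. Ctrl (adjusted p = 0.565) and 0.69 in Ctrl vs. HC (adjusted p = 1.00) did not pass. In Ppp1r1b, ENSMUST00000132443.7 held 45.5% of the FPKM and ran from 1.34 in NLH 1 to 7.57 in LH 2, and ENSMUST00000137634.1 held 12.3% and averaged 0.218 ± 0.259 among HC, 0.439 ± 0.388 among Ctrl, 2.03 ± 1.10 among NLH and 1.15 ± 1.65 among LH mice. ENSMUST00000147415.7 and ENSMUST00000078694.12 held a further 19.3% and 18.9%. Tac1 was divided between ENSMUST00000184986.1 with 54.8% and ENSMUST00000185187.7 with 43.6%, and Rgs9 among ENSMUST00000106706.7, ENSMUST00000020920.9 and ENSMUST00000106704.2 with 35.9%, 30.9% and 25.3%. These shares rest on the assignment of shared reads and are less certain than the gene sums.

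Of 11 further genes regarded as restricted to striatum, 8 were measured, and Drd3, Sh3rf2 and Lrrc10b had no values here. The highest were Adcy5, the adenylyl cyclase of medium spiny neurons, with a mean of 8.26 FPKM, Rasd2 with 6.84, Scn4b with 1.90 and Rarb with 1.03, while Isl1, a factor of direct pathway neurons, was at 0 in 9 of 16 mice. Summed over the 8 measured genes of this list, FPKM was 15.98 to 18.6 among HC, 18.0 to 20.4 among Ctrl, 16.1 to 21.01 among NLH and 14.2 to 25.1 among LH mice. Divided by the size factors they were 17.3 to 18.5, 19.3 to 20.4, 16.5 to 19.2 and 17.5 to 21.1, in the same order of groups. By limma, 0 of the 8 passed the adjusted threshold in any comparison. At an unadjusted p under 0.05, 2 of the 8, Scn4b and Six3, were higher in LH vs. Ctrl, where 7.03% of gene names were, and 1, Six3, was in LH vs. NLH, against 2.75%. Six3 is named after its values were seen.

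Scn4b, a sodium channel subunit abundant in striatum, had 1.83, 1.74, 1.59 and 1.73 FPKM in Ctrl and 2.19, 2.48, 2.97 and 2.01 in LH. Every LH mouse was above every Ctrl mouse in FPKM as deposited, but divided by the size factors the groups overlapped, with 1.92 to 3.15 in LH and 1.60 to 1.96 in Ctrl. The limma difference was 0.45 ± 0.16 (adjusted p = 0.305). Rasd2 and Adcy5 gave −0.18 and −0.02 in LH vs. Ctrl, with adjusted p of 0.665 and 0.996 by limma. Scn4b was thus 1 of 8 genes with LH higher without overlap, where 4.05% of gene names were, and 0 of the 8 were after division by the size factors. Rasd2 was 1 of the 8 without overlap in Ctrl vs. HC, with 7.17 to 8.05 FPKM in Ctrl and 5.82 to 6.34 in HC, against 5.24% of gene names. The part of these genes in the Drd1 difference was not tested.

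**Figure D4:**
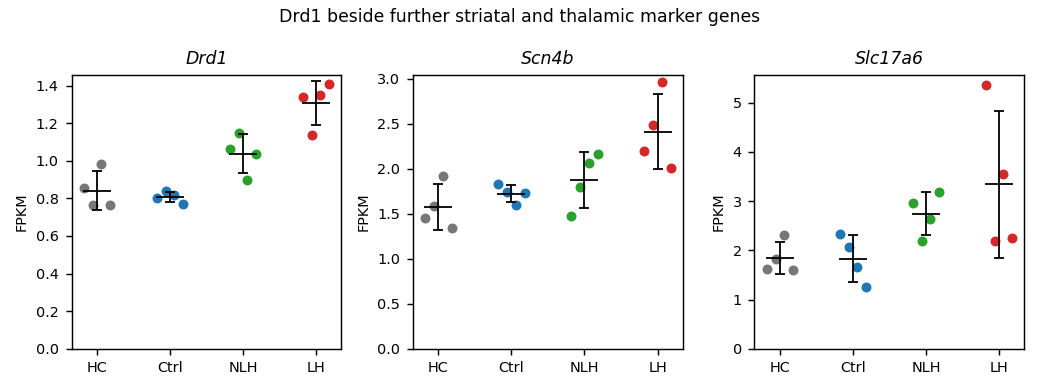
FPKM of Drd1, of Scn4b (striatum) and of Slc17a6 (thalamus, among others) by mouse and group; points are mice and bars are the group mean ± SD of 4 mice. In FPKM as deposited all LH mice lie above all Ctrl mice for Drd1 and Scn4b, though for Scn4b they overlap after division by size factors, and for Slc17a6 LH 1 stands highest at 5.37 FPKM.

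Another 11 of 12 genes known from striatum but also expressed by hippocampus were measured at 1.78 to 33.6 FPKM, led by Arpp21, Kcnip2, Gng7 and Gnal. By limma 0 of the 11 passed the adjusted threshold. At an unadjusted p under 0.05 in LH vs. Ctrl 2 were higher, Arpp21 with 0.35 (adjusted p = 0.208) and Meis2 with 0.40 (adjusted p = 0.326), and 1 was lower, Bcl11b with −0.41 (adjusted p = 0.400), against 7.03% and 4.49% of gene names. For Arpp21 the Ctrl mice, at 26.6 to 28.9 FPKM, were below every mouse of HC, at 30.6 to 39.5, of NLH, at 35.1 to 37.9, and of LH, at 30.3 to 40.5. Of all gene names, 4.05% had LH above Ctrl without overlap and 4.76% NLH above Ctrl. Ctrl and HC separated in either direction in 5.24%. Divided by the size factors, LH overlapped Ctrl for Arpp21 through LH 2. Meis2 and Bcl11b are named after their values were seen. The median of the list was 0.08 with 6 of 11 positive.

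Markers of other regions next to the hippocampus were read in the same mice. Of 13 genes of thalamus and habenula 11 were measured, led by Ntng1, Rora, Prkcd and Slc17a6, and their sum was 18.7 to 20.96 FPKM among HC, 19.9 to 20.4 among Ctrl, 19.0 to 23.2 among NLH and 18.6 to 44.4 among LH mice. The highest value was that of LH 1, where Prkcd reached 10.3 FPKM, Ntng1 12.2 and Rora 8.08. Each of these 4 leading genes was highest of the 16 mice in LH 1. The habenula gene Pou4f1 was at 0 in 15 of 16 mice. Tac2, of the same list, ran from 0.0642 to 1.01 FPKM and was not highest in LH 1. Slc17a6, the vesicular glutamate transporter of thalamic neurons, had 1.25 to 2.33 FPKM in Ctrl, 2.19 to 3.19 in NLH and 2.20 to 5.37 in LH mice. It was the 1 gene of the 11 with an unadjusted p under 0.05 in LH vs. Ctrl, higher in LH, against 7.03% of gene names, and in NLH vs. Ctrl, against 5.59% in either direction. LH 3, with 3.55 FPKM of it, had the lowest list sum of the LH mice, 18.6 FPKM, and 1.48 FPKM of Prkcd, below the Ctrl mice. Its limma difference was 0.78 ± 0.26 in LH vs. Ctrl (adjusted p = 0.255). Of 9 cortex genes 8 were measured, and their sum was 21.4 to 23.5 among HC, 22.2 to 25.1 among Ctrl, 24.9 to 33.1 among NLH and 21.8 to 33.1 among LH mice. At an unadjusted p under 0.05 by limma 2 of the 8 cortex genes were higher in LH vs. Ctrl, Foxp2 and Hs3st2, named after their values were seen, beside 7.03% of all gene names. In the cortex sum as deposited 3 of the 4 NLH mice and 3 of the 4 LH mice were above every Ctrl mouse, the exceptions being NLH 1 and LH 4. Divided by the size factors, NLH 1 and LH 4 were above every Ctrl mouse, while NLH 3 and LH 2 were below every Ctrl mouse. The cortex sums have no test. The part of these tissues in the Drd1 values was not tested.

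**Figure D5:**
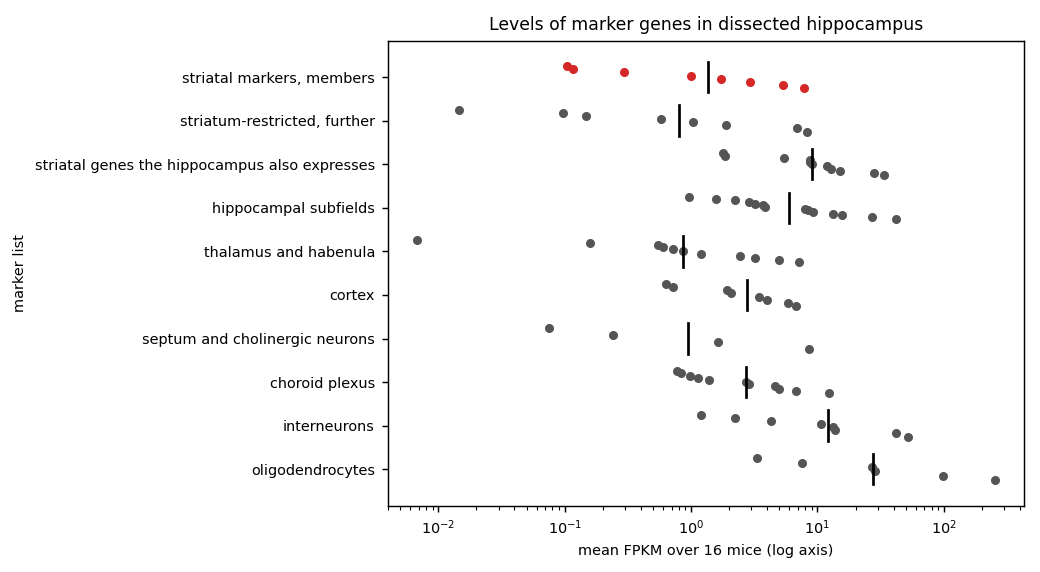
Mean FPKM over 16 mice on a log axis for each measured gene of the marker lists, with the list median as a bar; the 8 striatal markers are in red. Their median is 1.36 FPKM, beside 0.805 for the further striatum genes and 5.94 for the hippocampal subfield genes.

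The genes of the pathways around the markers were counted from fixed lists. By limma 0 passed the adjusted threshold in any comparison, and the counts that follow are at an unadjusted p under 0.05, where 7.03% of all gene names were higher and 4.49% lower in LH vs. Ctrl and 2.75% were higher in LH vs. NLH. Of 9 dopamine genes 3 were measured, Slc18a2 at 1.29 FPKM, Ddc at 1.24 and Th, the enzyme that starts dopamine synthesis, at 0.0785. In LH vs. Ctrl 0 of these 3 passed and in LH vs. NLH 1 was higher, the vesicular monoamine transporter Slc18a2, with a difference of 0.79 (adjusted p = 0.442). Of 16 genes of cyclic AMP and phosphatase signalling, led by Ppp3ca, Gnas, Adcy1 and Prkacb, 1 was higher in LH vs. Ctrl. In LH vs. NLH 2 of them were higher, among them the adenylyl cyclase Adcy1 with 0.36 (adjusted p = 0.503).

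Of 7 adenosine genes, led by the A1 receptor Adora1 with 18.7 FPKM, 1 was higher in LH vs. Ctrl, against those 7.03% of gene names. This was adenosine kinase, Adk, with a difference of 0.43 (adjusted p = 0.236). Of 15 opioid and tachykinin genes 14 were measured, led by the peptide processing enzymes Cpe with 346 FPKM and Pcsk2 with 30.3 and followed by the nociceptin receptor Oprl1 and Pcsk1, and 2 were higher in LH vs. Ctrl. Of these 2, the prohormone convertase Pcsk1 differed by 0.44 in LH vs. Ctrl (adjusted p = 0.314) and by 0.52 in NLH vs. Ctrl (adjusted p = 0.589). Of 6 genes around RGS9 5 were measured, led by Rgs7, Rgs7bp, Gnb5 and Rgs11, and 1 was higher in LH vs. Ctrl. No member of these 5 lists was lower in LH vs. Ctrl at that threshold, against 4.49% of gene names. The medians of the lists in that comparison lay between 0.08 and 0.20 on the log2 scale beside 0.00 over all gene names.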

How the data were processed

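RNA came from the dissected hippocampus of 16 mice, with 4 mice in each group of the labels (HC, Ctrl, NLH, LH). The authors deposited FPKM per transcript and mouse, with no logarithm and no scaling between mice. The submitters' processing notes name STAR 2.42a, StringTie 1.2.3, Cufflinks and mm10, while the paper's methods name HISAT2 as the aligner. The aligner is therefore uncertain. Read counts were not used here, so fold changes carry no counting interval, and whether counting used strand is not given in the sources used here. Depth was estimated from loci over 2000 bases with 1 transcript, where 50.4% to 60.5% of values lay within 0.1 of a whole fragment (20% by chance).

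FPKM was summed over each gene name, and log2(FPKM + 0.1) of all 16 mice was fitted with 4 group means in limma 3.58.1 (R 4.3.3) with a variance trend and robust moderation. P-values were adjusted over all 18287 names by Benjamini-Hochberg. The fit was tested on simulated data. Mice were group-housed, and which of the sequenced mice shared a cage or batch is not given in the sources used here, so p-values measure the spread between these mice. The members and lists were chosen with earlier results of these data known. The genes named are the 8 markers, the 4 highest measured genes of each list that bears on them, the 3 names nearest to each marker over the 16 mice, and transcripts with at least 10% of a marker's FPKM. Isl1, Pou4f1, Tac2, Six3, Foxp2, Hs3st2, Meis2 and Bcl11b were named outside this rule, after their values had been seen. A few listed genes are not reported here. Positions are from GENCODE vM21 and promoters from RefSeq. Alternatives were 0.01 or 1 added, median-ratio size factors, genes with a mean of 1 FPKM or more, only the 2 groups compared, mouse number as a block, transcripts, the test of the methods, and each mouse left out. Sums over loci, a fit without LH 3 and LH 4, and levels divided by size factors were added after the data had been seen. Python 3.11.15, numpy 2.4.6, pandas 2.3.3, scipy 1.17.1 and matplotlib 3.10.9 were used.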

Additional observations from a re-analysis of the deposited data

Results flagged for a closer look

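In 40 groups of 4 values, one for each marker and group with names or whole loci summed, 3 had a mouse whose gap to its nearest neighbor took up most of the group's range, past Dixon's critical value. Chance gives about 1 such group in 20. Adora2a in LH 2, with 0.163 FPKM, lay above the other LH mice, the gap being 0.918 of the range. The named transcripts of Penk in LH 4, with 0.730 FPKM, lay above the other LH mice, the gap being 0.998 of the range. The summed Pde10a locus in LH 3, with 7.26 FPKM, lay below the other LH mice, the gap being 0.910 of the range. All 3 were in the LH group.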

How the results depend on the processing

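In every limma alternative run, 0 of the 8 markers passed the adjusted threshold in any comparison. The test of the methods called 1, Drd1, in LH vs. Ctrl, LH vs. NLH and NLH vs. Ctrl. Drd1 in LH vs. Ctrl kept its direction in the 13 of 24 alternatives that could move its value (11 could change its error only), with adjusted p between 0.0587 and 0.453 by limma. Mice of the same number were no more alike than others. The median r was −0.0230 over 24 pairs (−0.0991 to 0.138), beside 0.00350 over 72 pairs of other numbers (−0.161 to 0.146). This cannot exclude a shared cage or batch. With mouse number as a block Drd1 in LH vs. Ctrl was 0.63 with an adjusted p of 0.207 by limma, and no call of a marker changed.

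Counts of gene names called changed more. In LH vs. Ctrl (0) they were 5 with 0.01 added, 5 with a mean of at least 1, 49 with size factors, 2 with only the 2 groups, 37 transcripts, 1443 by the test of the methods and 0 to 191 with a mouse left out, 191 being without LH 4 and 33 without LH 2. In LH vs. NLH (2) they were 1 with 1 added, with a mean of at least 1 and with only the 2 groups, 33 transcripts, 629 by the test of the methods and 2 to 11 with a mouse left out. In NLH vs. Ctrl (1) they were 0 with a mean of at least 1, 5 with size factors, 8 with only the 2 groups, 10 transcripts, 1728 by the test of the methods and 1 to 11 with a mouse left out. In Ctrl vs. HC (0) they were 3 transcripts, 1535 by the test of the methods and 0 to 1 with a mouse left out. The cause was not tested.

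Some marker differences changed sign. In LH vs. Ctrl, Drd2 became 0.016 with 1 added, 0.77 without LH 3 and LH 4 and 0.0366 FPKM by the test of the methods. In LH vs. NLH, Penk became −0.49 with 0.01 added and Pde10a −0.011 over loci, and without LH 3 and LH 4 Drd2 became 0.65, Adora2a 0.078, Penk −0.73 and Tac1 0.33. In NLH vs. Ctrl, Ppp1r1b became −0.076 with size factors, and in Ctrl vs. HC Pde10a became 0.15 over loci. With a mouse left out, ranges that crossed 0 in LH vs. Ctrl were −0.57 to 0.37 for Drd2, −0.057 to 0.45 for Ppp1r1b, −0.042 to 0.30 for Tac1 and −0.37 to 0.065 for Rgs9. In LH vs. NLH they were −0.68 to 0.26 for Drd2, −0.059 to 0.45 for Ppp1r1b, −0.73 to 0.45 for Penk, −0.25 to 0.089 for Tac1 and −0.32 to 0.11 for Rgs9. In NLH vs. Ctrl they were −0.037 to 0.26 for Drd2, −0.086 to 0.18 for Ppp1r1b, −0.17 to 0.023 for Rgs9 and −0.0040 to 0.18 for Pde10a. In Ctrl vs. HC they were −0.087 to 0.022 for Drd1, −0.079 to 0.10 for Adora2a, −0.13 to 0.022 for Ppp1r1b, −0.22 to 0.12 for Tac1 and −0.19 to 0.012 for Pde10a. Low levels limit Adora2a, Drd2 and the named Penk transcripts.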

Other observations

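Genes of the choroid plexus, the epithelium in the ventricle next to the hippocampus, varied more between mice than the striatal markers. All 11 of the list were measured, led by Ttr, Kl, Folr1 and Kcnj13, and their sum ran from 2.75 FPKM in LH 4 to 115 FPKM in LH 2. In LH vs. Ctrl 0 of the 11 passed an unadjusted p under 0.05 by limma, against 11.5% of all gene names, and Ttr, the transthyretin gene, differed by −0.87 on the log2 scale (adjusted p = 0.912), while its mean FPKM was higher in LH, 17.6, than in Ctrl, 11.5, LH 4 being near 0.

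Of 8 interneuron genes all were measured, led by Sst at 51.8 FPKM, Gad1 at 41.6, Gad2 at 13.6 and Pvalb at 13.4, levels above those of all 8 striatal markers. In LH vs. Ctrl, 1 of the 8, Gad2, an enzyme of GABA synthesis, had an unadjusted limma p under 0.05, as did 11.5% of all gene names, with a difference of 0.28 (adjusted p = 0.400). Of 4 measured septal and cholinergic genes and 6 measured oligodendrocyte genes, 0 passed that threshold in LH vs. Ctrl.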
